A study of Mus musculus with 8 samples.

Results

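Lymphoid-primed multipotent progenitors (LMPPs) were profiled by RNA-seq in 4 of the 8 libraries of the series, and these 4 are described here after regrouping by the reads that fell on exons 2 to 7 of *Pcgf1*. Each library was placed by its own reads on those exons, as the exon-positive group (reads present) or the exon-negative group (0 reads). This grouping departs from the labels. The exon-positive group holds the libraries labelled Pcgf1 fl/fl 1 and Pcgf1 -/- 1, and the exon-negative group those labelled Pcgf1 fl/fl 2 and Pcgf1 -/- 2, so that 2 libraries, Pcgf1 -/- 1 and Pcgf1 fl/fl 2, stand against their label. Whether the labels of these 2 libraries were exchanged, in which case neither the printed labels nor the comparison by labels below would mean what they say, cannot be told from these files. The study also presents *Pcgf1* in LMPPs under its labels, from RNA-seq tracks and by RT-qPCR, and neither is used here. Labels are kept below as names only. Values of a pair of libraries are always given with the library labelled Pcgf1 fl/fl first. The split is also the split by the replicate number of the labels, so that anything shared by libraries with the same number (a day, a mouse, a preparation) cannot be told apart from it. The cells came from bone marrow, with the strain given as B6CBAF1/J, and were grown on TSt4 stromal cells with IL7, SCF and Flt3 ligand. Per the study's methods, control cells carried floxed *Pcgf1* alleles (Pcgf1 fl/fl) without Cre, *Pcgf1*-KO cells carried them with ERT2-Cre (a Cre recombinase that 4-hydroxytamoxifen, 4-OHT, switches on, and whose promoter is not given in the sources used here), and both were cultured with 4-OHT. The controls thus lacked the Cre itself. The methods give how many LMPPs 1 mouse yields, but not how many mice made a library, and the labels carry a passage range even for these cells.

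PCGF1 is the subunit that defines PRC1.1, a variant Polycomb repressive complex 1. It pairs with RING1B, a ubiquitin ligase for histone H2A, and with BCOR or BCORL1, while KDM2B brings the complex to unmethylated CpG islands. LMPPs are early progenitors marked by Flt3 that keep lymphoid and myeloid potential and have lost most potential for megakaryocytes and red cells. Stem cell, megakaryocytic, lymphoid and myeloid genes are co-expressed there at low levels, which makes shifts between lineage programs visible in bulk RNA. In bulk samples fewer cells of a type and less RNA per cell cannot be told apart.

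The exons that set the grouping are the part of *Pcgf1* that the conditional allele is built to remove. They lie on the plus strand of chromosome 6 in build mm9, within chr6:83028889-83030134, are all coding, and are shown here because the whole regrouping rests on reads over these bases. Together they hold 558 bases, 75.3% of the 741 coding bases, which makes 186 codons, and the 57 coding bases of exon 1 also end on a codon boundary, so that a transcript spliced from exon 1 to exon 8 stays in frame.
exon 2 (chr6:83028889-83028994): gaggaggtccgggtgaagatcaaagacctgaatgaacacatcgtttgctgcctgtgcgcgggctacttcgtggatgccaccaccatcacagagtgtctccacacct
exon 3 (chr6:83029110-83029262): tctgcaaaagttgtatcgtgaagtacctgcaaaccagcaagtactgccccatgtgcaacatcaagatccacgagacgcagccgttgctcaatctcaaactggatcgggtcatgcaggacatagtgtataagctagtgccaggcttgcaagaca
exon 4 (chr6:83029428-83029499): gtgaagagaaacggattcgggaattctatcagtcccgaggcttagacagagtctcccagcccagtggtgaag
exon 5 (chr6:83029634-83029739): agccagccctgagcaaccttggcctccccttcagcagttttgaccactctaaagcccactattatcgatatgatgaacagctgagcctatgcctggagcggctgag
exon 6 (chr6:83029916-83029949): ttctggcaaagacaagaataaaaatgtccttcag
exon 7 (chr6:83030048-83030134): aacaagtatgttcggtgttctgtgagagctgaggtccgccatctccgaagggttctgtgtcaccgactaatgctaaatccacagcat

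In the exon-positive libraries, 84 reads (labelled Pcgf1 fl/fl 1) and 76 reads (labelled Pcgf1 -/- 1) fell on exons 2 to 7, or 77.1% and 78.4% of the reads on the gene. In both exon-negative libraries the number was 0, which allows up to 0.173 CPM (labelled Pcgf1 fl/fl 2) and 0.227 CPM (labelled Pcgf1 -/- 2), taking 3 reads as the limit. Each of the 6 exons had reads in both exon-positive libraries and none in either exon-negative library. Exons 1, 8 and 9, outside the deletable part, were read in all 4 libraries, with 25 and 21 reads in the exon-positive and 20 and 24 in the exon-negative libraries, or 1.84 and 1.44 CPM against 1.15 and 1.82 CPM. All 4 libraries thus held reads of the gene, and the groups parted at the middle exons. All exons summed, *Pcgf1* stood at 8.04 and 6.66 CPM against 1.15 and 1.82 CPM. These values chose the groups, so no test is given for them and *Pcgf1* is left out of every count below. In the immortalized progenitors (IdHPCs) of the same series, tabulated apart, reads on the exons followed the labels, with 193 and 173 reads on exons 2 to 7 in the libraries labelled Pcgf1 fl/fl and 15 in each of those labelled Pcgf1 -/-.

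**Figure D1:**
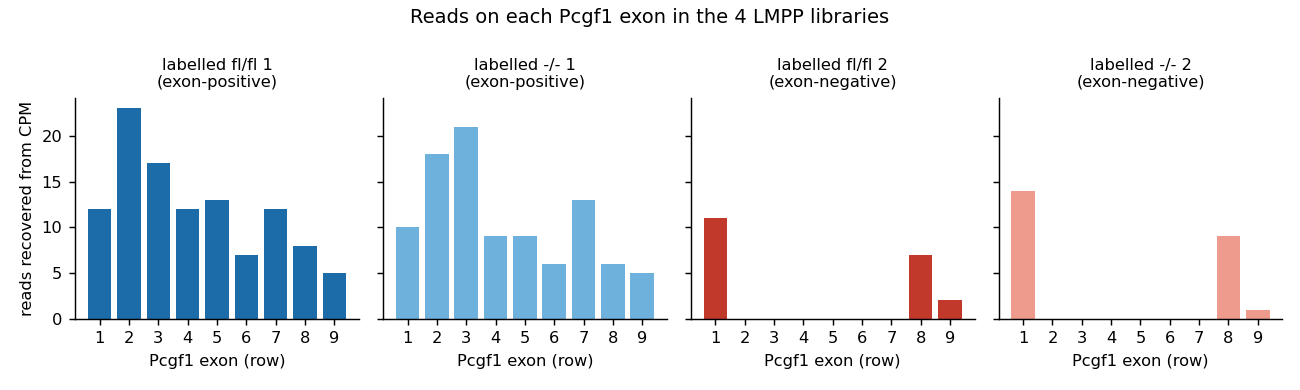
Reads on each of the 9 *Pcgf1* exons (x axis, exon number; y axis, reads recovered from CPM) in the 4 LMPP libraries, one panel each, blue for exon-positive and red for exon-negative. Bars stand on exons 2 to 7 in both exon-positive libraries, whereas both exon-negative libraries have 0 reads there and reads on exons 1, 8 and 9.

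The libraries held between 9611759 and 12569296 reads on distinct exons, and 1 read was worth between 0.0575 and 0.0757 CPM, the unit of the tables (the count on a gene scaled to a common library total). Libraries of the same exon group were the most alike. Their Pearson correlations over log2(CPM + 1) were 0.9944 for the exon-positive and 0.9942 for the exon-negative pair, against 0.973 to 0.977 across the groups, and the first principal component, with 79.1% of the variance, separated the groups. The pairs were not the same library deposited again, since their counts spread 4.93 and 6.15 times more than sampling noise allows (chi-square per degree of freedom). The share of reads on the 3' exon, a sign of RNA quality, was 24.4% and 22.6% in the exon-positive and 22.1% and 23.7% in the exon-negative libraries, and so overlapped between the groups. *Xist* was abundant and *Ddx3y*, *Eif2s3y*, *Kdm5d* and *Uty*, which are Y-linked, had 0 reads in all 4 libraries. *Flt3*, *Cd34* and *Kit*, which define LMPPs on the cell surface, were all abundant. *Flt3* had 419 and 440.4 CPM in the exon-positive libraries and 371 and 366 CPM in the exon-negative libraries, and *Cd34* had 736 and 721 CPM in the exon-positive libraries and 758 and 800.1 CPM in the exon-negative libraries, and neither passed the test (adjusted p = 0.072 and 0.46). *Kit*, the receptor for SCF, rose from 228 and 258 to 384 and 352 CPM (log2 difference 0.600, SE 0.09, adjusted p = 0.0013).

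Differences between the exon groups were tested with limma on log2(CPM + 1) over 12135 genes with at least 1 CPM in any library. Differences are exon-negative minus exon-positive on this scale, which understates the change of low genes, each with its standard error (SE) and a p adjusted by the Benjamini-Hochberg method, called when under 0.05. A p here measures the spread among these 4 libraries, 2 in each group, in groups set by their own *Pcgf1* reads. The test called 2090 genes (17.2% of those tested), 1230 higher (10.1%) and 860 lower (7.09%) in the exon-negative libraries. Both exon-negative libraries lay above both exon-positive ones in 3246 genes (26.7%) and below both in 3625 (29.9%), against which the absence of overlap in a named gene below is to be read. Genes that reached 1 CPM in 1 group only passed the filter through the group in which they were high, so that their calls are a description, and of the genes named below these are *Klk1b22*, *Obsl1*, *Cyp4f18*, *Ifi44*, *Mx2*, *Dpf1*, *Pawr*, *Scml2*, *Fzd4*, *Cdkn1c*, *Lbx2*, *Nlrp1b*, *Cd22*, *Cma1*, *Epor* and *Epas1*. Among the called genes, 301 rose and 178 fell by at least 1 on the log2 scale. The median over all genes was -0.02, and 47.0% of genes had a difference above 0. Without the library labelled Pcgf1 fl/fl 2, the test called 1329 genes. In every fit that leaves out 1 library, a group holds a single library, which is taken to vary like the pair of the other group, and a call kept or lost there rests on that assumption. Without the 3' exon of each gene, which leaves fewer reads and fewer genes above the filter, 1163 genes were called, and *Auts2*, *Bcl6*, *Cma1*, *Csf2ra*, *Epas1*, *Ezh1*, *H2-Ab1*, *Hoxb4*, *Igsf6*, *Il3ra*, *Il6st*, *Il7r*, *Jarid2*, *Myct1*, *Notch1*, *Prickle1*, *Rgs1*, *Rrm2*, *Scml2*, *Sfpi1*, *Sox6*, *Thy1*, *Trp53inp1* and *Zap70*, of the genes named below, were not among them. *Ccr7*, *Fzd4*, *Il1rl1*, *Lbx2*, *Tlr7* and *Tlr9* were then below the filter. Grouped by the labels instead, and without a term for the exon group, the same 12135 genes gave 0 calls (0%) with limma, with edgeR's quasi-likelihood test and exactTest and with DESeq2. At an unadjusted p under 0.05 these gave 1, 2, 3 and 1 genes, the 1 of limma being the tubulin gene *Tuba1a* (labelled -/- minus labelled fl/fl 1.18 on the log2 scale). With the replicate number, which is the exon split, as a block, limma called 3 genes and 106 had an unadjusted p under 0.05, with *Tuba1a* at an adjusted p of 5.5e-11. *Tuba1a* was singled out after its values were seen, and reads from near-identical tubulin genes may have been shared with it.

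The same-labelled libraries allow the exon difference to be measured in pairs that share no library. The difference between the libraries labelled Pcgf1 fl/fl 2 and Pcgf1 fl/fl 1 and that between Pcgf1 -/- 2 and Pcgf1 -/- 1 had a Pearson's r of 0.71 across 12135 genes, which are not independent replicates. The differences between the labels, taken within the exon-positive and within the exon-negative pair, had an r of -0.30 across the same genes. They also spread less, with standard deviations over genes of 0.21 in both pairs against 0.46 and 0.43 for the exon differences.

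**Figure D2:**
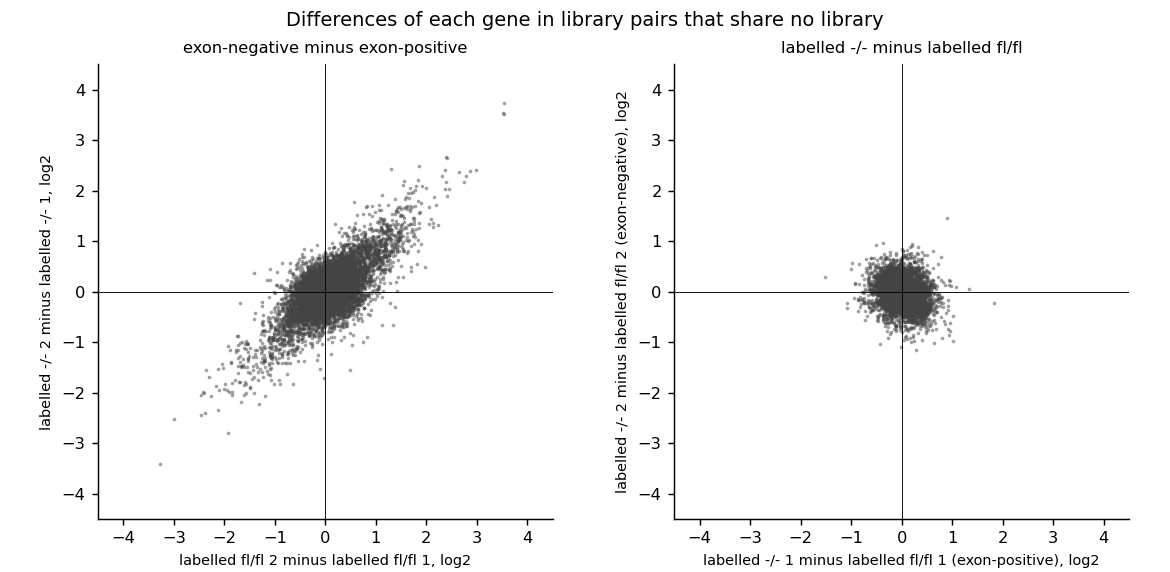
Each point is 1 of 12135 genes, and both axes are differences of log2(CPM + 1) between a pair of libraries, with the pairs of x and y sharing no library. Left, exon-negative minus exon-positive within each label (r = 0.71), where the cloud stretches along the diagonal. Right, labelled -/- minus labelled fl/fl within each exon group (r = -0.30), where the cloud is compact.

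Among the 12 largest rises, *Gdpd3*, a lysophospholipase D, had 1.401 and 1.304 CPM in the exon-positive libraries and 26.7 and 29.8 CPM in the exon-negative libraries (log2 difference 3.63, SE 0.14, adjusted p = 1.5e-06). *Trib3*, a pseudokinase induced by amino acid and endoplasmic reticulum stress, rose from 3.17 and 3.84 to 46.5 and 55.3 CPM (log2 difference 3.52, SE 0.14, adjusted p = 1.5e-06). The mean CPM of these genes was 20.9-fold and 14.5-fold higher in the exon-negative libraries, and the groups did not overlap. The receptor phosphatase gene *Ptprf* rose from 10.1 and 12.5 to 86.6 and 70.3 CPM and *Scd1*, a fatty acid desaturase, from 2.21 and 2.81 to 21.3 and 17.6 CPM. *Ltbp4*, which binds latent TGF-beta, rose from 3.47 and 3.77 to 27.1 and 23.5 CPM. Others were *Arhgef25*, *Clic5*, *Msrb3*, *Obsl1*, *C630004H02Rik* and *Klk1b22*, with differences between 2.30 and 2.63. *Klk1b22* had 0 reads in both exon-positive libraries against 75 and 69 reads, at least 21.6-fold higher against a floor of 3 reads per library, but it belongs to a family of near-identical kallikrein genes and its reads are uncertain.

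The largest fall was that of *Mid1*, a ubiquitin ligase on microtubules, with 48.2 and 53.3 CPM in the exon-positive libraries and 4.09 and 4.09 CPM in the exon-negative libraries (log2 difference -3.34, SE 0.12, adjusted p = 1.5e-06). Of the other 11 in the 12 largest falls, *Mx1*, *Mx2*, *Ifi44*, *Oas2* and *Ifi27l2a* are genes that interferon induces, and *Cybb*, *Ms4a6c* and *Pld4* are genes of phagocytes or dendritic cells. *Pld4* fell from 52.9 and 50.1 to 9.09 and 11.8 CPM (log2 difference -2.21, SE 0.13, adjusted p = 1.6e-05). *Cybb*, the catalytic subunit of the phagocyte NADPH oxidase, fell from 14.7 and 12.1 to 1.84 and 2.195 CPM (log2 difference -2.25, SE 0.16, adjusted p = 3.5e-05). *Cyp4f18*, *Matn1* and *Tnfsf4* fell by 2.45, 2.23 and 2.20 on the log2 scale. No library of one group overlapped the other group in any of these 12 genes.

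**Figure D3:**
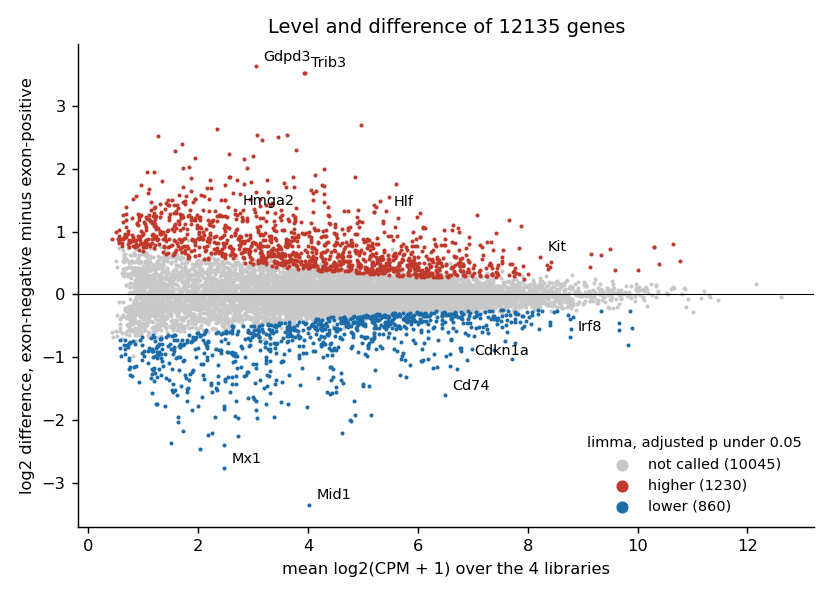
Mean log2(CPM + 1) over the 4 libraries (x axis) against the log2 difference, exon-negative minus exon-positive (y axis), for 12135 genes, *Pcgf1* left out. The 1230 genes called higher are red, the 860 called lower blue and the 10045 others grey. *Gdpd3* is the highest point and *Mid1* the lowest, and calls lie on both sides of 0.

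Most tested regulators of hematopoietic stem cells rose. Of 31 listed genes, 27 passed the filter, 16 were called higher and 2 lower, and the median difference was 0.59, beside -0.02 over all genes. This and each count below is to be read against 10.1% called higher and 7.09% called lower of all genes tested. Of the 27 stem cell regulators tested, 3 reached 1 CPM in an exon-negative library only and 1 in an exon-positive library only. Without the 3' exon, 10 stem cell regulators were called higher. *Hlf*, a transcription factor of quiescent stem cells, had 25.3 and 27.04 CPM in the exon-positive libraries and 73.3 and 61.02 CPM in the exon-negative libraries (log2 difference 1.32, SE 0.11, adjusted p = 5.6e-05). *Nkx2-3*, a homeobox factor, rose from 3.24 and 3.16 to 12.2 and 14.99 CPM (log2 difference 1.79, SE 0.16, adjusted p = 7.0e-05). *Hmga2*, a chromatin protein typical of fetal stem cells, rose from 2.73 and 3.29 to 10.4 and 8.02 CPM (log2 difference 1.34, SE 0.17, adjusted p = 6.6e-04). The groups did not overlap in any of the 3. *Sox6* rose from 0.737 and 1.304 to 5.29 and 4.54 CPM, *Myct1*, a target of MYC, from 8.18 and 6.38 to 18.1 and 17.9 CPM and *Meis1*, a Hox cofactor, from 37.4 and 40.6 to 64.8 and 59.3 CPM. In each of these 6 genes both exon-negative libraries lay above both exon-positive ones. The calls of *Sox6* and *Myct1* were lost when the 3' exon was left out. The genes called lower were *Ly6a*, which encodes the stem cell antigen Sca-1, from 14.7 and 14.7 to 4.14 and 2.801 CPM (log2 difference -1.83, SE 0.17, adjusted p = 1.1e-04), and the immediate early gene *Egr1*, from 12.2 and 15.5 to 6.44 and 6.96 CPM. *Ly6a* belongs to a cluster of similar genes, which may share reads. *Zbtb16*, which encodes PLZF, rose from 7.96 and 10.7 to 21.3 and 15.5 CPM.

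Hox genes and their cofactors, which keep progenitors immature, moved the same way where they moved at all. Of 46 measured, 18 passed the filter, 5 were called higher and 0 lower, with a median of 0.39. Of the 18, 2 reached 1 CPM in an exon-negative library only. Without the 3' exon, the library labelled Pcgf1 fl/fl 2 or that labelled Pcgf1 -/- 2, 3 were called, and without a filter the median was 0.18. *Hoxa10* rose from 3.61 and 3.500 to 8.46 and 7.49 CPM (log2 difference 0.98, SE 0.15, adjusted p = 0.002) and *Hoxb3* from 5.82 and 5.63 to 12.7 and 10.1 CPM (log2 difference 0.87, SE 0.15, adjusted p = 0.0035). *Hoxb4* was called with a smaller difference (0.48), and lost its call without any 1 of the libraries labelled Pcgf1 -/- 1, Pcgf1 fl/fl 2 and Pcgf1 -/- 2. *Hoxa9*, the most abundant Hox gene here, had 31.5 and 33.8 CPM in the exon-positive libraries and 42.1 and 38.7 CPM in the exon-negative libraries and did not pass the test (adjusted p = 0.067), although edgeR's exactTest called it. No gene of the Hoxd cluster passed the filter.

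Many genes of megakaryocytes and erythroid cells rose as well. Of 28 listed genes, 21 passed the filter, 12 were called higher and 0 lower, and the median was 0.56. *Pf4*, a chemokine of platelet granules, had 35.9 and 28.3 CPM in the exon-positive libraries and 66.6 and 84.3 CPM in the exon-negative libraries (log2 difference 1.21, SE 0.14, adjusted p = 3.2e-04). *Zfpm1*, which encodes the GATA partner FOG1, rose from 43.3 and 49.1 to 99.1 and 96.1 CPM (log2 difference 1.07, SE 0.09, adjusted p = 6.6e-05). *Gata2*, a transcription factor of stem cells, mast cells and megakaryocytes, rose from 49.5 and 54.3 to 86.3 and 82.6 CPM (log2 difference 0.69, SE 0.09, adjusted p = 5.9e-04) and its partner *Tal1* from 37.3 and 36.2 to 60.8 and 53.3 CPM (log2 difference 0.62, SE 0.10, adjusted p = 0.002). Each of these 4 was higher in both exon-negative libraries than in either exon-positive one. *Ppbp*, another platelet chemokine, rose from 13.9 and 15.4 to 24.2 and 23.5 CPM and *Car2*, a carbonic anhydrase, from 52.8 and 52.2 to 86.7 and 91.98 CPM. *Epor*, the erythropoietin receptor, had 4 and 13 reads against 35 and 38 and was called higher (1.13), a call that was lost without the library labelled Pcgf1 -/- 2. *Gata1*, which drives erythroid and megakaryocytic maturation, was low, with 1.696 and 2.13 CPM in the exon-positive libraries and 1.84 and 1.51 CPM in the exon-negative libraries, and did not pass the test (adjusted p = 0.73). Markers of mature red cells were low, and higher in the exon-negative libraries, with the whole list of 10 summing to 3.54 and 4.53 CPM in the exon-positive libraries and 5.47 and 8.33 CPM in the exon-negative libraries. The 2 that passed the filter, *Hbb-b1* and *Hbb-b2*, both had a difference of 0.58 and were not called, and *Slc4a1* and *Tspo2* were at 0 reads in all 4 libraries. The part of such cells in the rise was not tested. *Hbb-b1* and *Hbb-b2* were listed with the same reads and could not be separated.

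Genes of mast cells and basophils went both ways, with 4 called higher and 3 lower of 12 tested. *Slc18a2*, a vesicular monoamine transporter, rose from 21.5 and 23.1 to 59.8 and 53.5 CPM (log2 difference 1.31, SE 0.10, adjusted p = 4.5e-05), as did *Kit* and *Gata2*. *Hdc*, which makes histamine, fell from 13.9 and 12.7 to 6.21 and 5.53 CPM (log2 difference -1.06, SE 0.14, adjusted p = 7.3e-04). *Cma1*, a mast cell chymase, and *Il1rl1*, the receptor for IL33, were also called, in opposite directions (0.93 and -0.64), with *Cma1* losing its call without the library labelled Pcgf1 fl/fl 1 and *Il1rl1* without any 1 of the 4.

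The study lists genes bound by PCGF1 and RING1B in IdHPCs, divided into C1 genes, which also carry H3K27me3, and C2 genes, which do not. They were chosen by chromatin binding in other cells, not on these libraries. Of 481 C1 genes, 295 passed the filter, 110 were called higher and 19 lower, or 37.3% and 6.44% of those tested, beside 10.1% and 7.09% of all genes. Their median difference was 0.35. Of the 295, 33 reached 1 CPM in an exon-negative library only and 8 in an exon-positive library only. Over the 273 with a mean of at least 1 CPM over all 4 libraries, 105 were called higher and 19 lower. Some genes that passed through 1 group only remain among these, since the mean is raised by the group in which a gene is high. Without a filter the median of C1 was 0.15. Of 815 C2 genes listed, 813 were measured, 751 passed the filter, 172 were called higher and 38 lower (22.9% and 5.06%), with a median of 0.14. Of the 751, 13 reached 1 CPM in an exon-negative library only and 5 in an exon-positive library only. Without the library labelled Pcgf1 fl/fl 2, 73 C1 and 104 C2 genes were called higher and the C2 median was 0.09, and without that labelled Pcgf1 -/- 2, 23 C2 genes were called lower. Without the 3' exon, 70 of 261 C1 genes were called higher and 10 lower, and 110 and 16 of 735 C2 genes.

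C1 genes with the largest differences were *Mid1* and *Ltbp4*, given above, and *Pawr*, *Nkx2-3*, *Lama5* and *Ptpru*. *Pawr*, a pro-apoptotic protein gene, had 1 and 4 reads against 68 and 42. *Lama5*, a laminin chain, rose from 8.04 and 11.1 to 38.4 and 30.1 CPM (log2 difference 1.74, SE 0.17, adjusted p = 1.2e-04) and the receptor phosphatase gene *Ptpru* from 4.94 and 8.37 to 25.1 and 21.8 CPM (log2 difference 1.71, SE 0.20, adjusted p = 3.6e-04). Among C2 genes, *Bmp1*, a procollagen protease, rose from 4.497 and 3.71 to 16.8 and 17.2 CPM (log2 difference 1.82, SE 0.14, adjusted p = 4.5e-05) and *Slc6a9*, a glycine transporter, from 3.17 and 2.61 to 12.1 and 11.96 CPM. *Dbn1*, which encodes the actin-binding protein drebrin, rose from 8.85 and 7.82 to 29.3 and 27.6 CPM. *Ccdc48* and *C630004H02Rik* rose too (1.82 and 2.63), whereas the ephrin receptor gene *Epha2* fell from 54.3 and 56.96 to 14.3 and 13.7 CPM (log2 difference -1.92, SE 0.10, adjusted p = 8.5e-06).

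The study also groups its targets by function. How these lists were drawn up is not stated, so their directions are not independent evidence. Of 38 stemness-related genes tested, 18 were called higher and 1 lower, with a median of 0.37. The 1 called lower was *Notch1*, and not without either library labelled Pcgf1 -/-. Within them, 9 of 13 C1 members and 9 of 25 C2 members were called higher, with medians of 0.62 and 0.07, the latter up to 0.15 with 1 library left out, that labelled Pcgf1 -/- 1. *Lgr4* (from 1.62 and 1.72 to 5.98 and 4.47 CPM) and *Wnt10b* (from 3.32 and 3.98 to 9.61 and 9.24 CPM), a receptor and a ligand in Wnt signalling, *Prickle1*, *Zhx2*, *Shb* and *Smo* were among those that rose. *Prickle1* lost its call without the library labelled Pcgf1 fl/fl 2 and *Shb* without the one labelled Pcgf1 -/- 2. Of 48 myeloid-related genes tested, 14 were called higher and 3 lower, with a median of 0.09 (0.05 without the library labelled Pcgf1 fl/fl 1 and 0.15 and 0.14 without Pcgf1 -/- 1 and Pcgf1 -/- 2). The members that rose most were *Hmga2*, *Zfpm1*, *Vegfa* and *Rxra*, of which *Zfpm1* acts in megakaryocytes and red cells and *Vegfa* is an angiogenic factor. *Vegfa* rose from 47.6 and 46.9 to 98.5 and 101 CPM (log2 difference 1.06, SE 0.08, adjusted p = 4.3e-05). *Rxra*, a nuclear receptor, rose from 3.61 and 5.01 to 9.38 and 8.86 CPM (log2 difference 0.94, SE 0.17, adjusted p = 0.004). *Tesc* and *Ppargc1b* rose by 0.83 and 0.71, the former losing its call without the library labelled Pcgf1 fl/fl 2, and *Epas1* rose by 0.92 and lost it without either library labelled Pcgf1 fl/fl. Of 29 B cell-related genes tested, 3 were called higher and 1 lower (10.3% and 3.45% of those tested, beside 10.1% and 7.09% of all genes), with a median of 0.03. That median was -0.06 without the library labelled Pcgf1 fl/fl 1, -0.05 without Pcgf1 fl/fl 2, 0.096 without Pcgf1 -/- 1 and 0.06 without Pcgf1 -/- 2, and so lay on both sides of 0. *Spns2*, a sphingosine-1-phosphate transporter, rose from 120.03 and 123 to 242 and 236 CPM (log2 difference 0.97, SE 0.07, adjusted p = 4.3e-05), as did *Kit* and *Bcl6* (0.51), the latter without a call when any of the libraries labelled Pcgf1 fl/fl 1, Pcgf1 fl/fl 2 and Pcgf1 -/- 2 was left out. *Runx3* had 176 and 207 CPM in the exon-positive libraries and 201 and 177 CPM in the exon-negative libraries and did not pass the test (adjusted p = 0.92).

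Receptors, signal transducers and some target genes of the Wnt, BMP and TGF-beta pathways were called higher in 8 and lower in 2 of 31 members tested (median 0.29). The 2 called lower were *Id3* and *Id2*, which are not receptors or transducers. Without the library labelled Pcgf1 fl/fl 2 the median was 0.196. *Tgfbr2*, a TGF-beta receptor subunit, rose from 30.9 and 36.99 to 63.8 and 60.9 CPM (log2 difference 0.86, SE 0.11, adjusted p = 4.9e-04), *Fzd7*, a Wnt receptor, from 14.2 and 18.4 to 32.5 and 25.1 CPM (log2 difference 0.78, SE 0.15, adjusted p = 0.0068) and *Acvr2b*, an activin receptor, from 4.13 and 5.22 to 10.2 and 8.93 CPM. *Fzd6* and *Fzd4* rose by 0.77 and 0.86, and both lost their calls without the library labelled Pcgf1 fl/fl 2, *Fzd4* also without that labelled Pcgf1 -/- 2. *Id3*, an inhibitor of E proteins that BMP and TGF-beta signalling induce, fell from 13.2 and 13.6 to 3.28 and 3.79 CPM (log2 difference -1.67, SE 0.15, adjusted p = 7.2e-05).

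Among 29 other PRC1 subunits tested, 7 were called higher and 2 lower (24.1% and 6.897% of those tested, beside 10.1% and 7.09% of all genes). The median was 0.11, or 0.06 without the 3' exon, where 0 were called lower, and the differences ran from -0.783 to 0.958. *Bcor* and *Bcorl1*, each a partner of PCGF1 in PRC1.1, were called higher. *Bcor* rose from 136 and 163 to 239 and 213 CPM (log2 difference 0.59, SE 0.10, adjusted p = 0.003) and *Bcorl1* from 14.5 and 16.1 to 33.4 and 28.2 CPM (log2 difference 0.96, SE 0.12, adjusted p = 6.2e-04). Of the other PRC1.1 components, which are given after their values were seen, *Kdm2b* was called higher (0.38), but not without either library labelled Pcgf1 fl/fl, while *Ring1*, *Rnf2*, *Rybp*, *Yaf2*, *Skp1a* and *Usp7* were not called and lay between -0.26 and 0.12. *Pcgf2*, a PCGF1 paralog in canonical PRC1, rose from 15.2 and 17.6 to 31.6 and 27.8 CPM (log2 difference 0.82, SE 0.12, adjusted p = 0.0014) and the chromodomain gene *Cbx7* from 11.8 and 12.2 to 21.6 and 20.4 CPM. *Scml2* and *Auts2* were called lower (-0.78 and -0.73), and each lost its call without the library labelled Pcgf1 -/- 2, *Scml2* also without that labelled Pcgf1 fl/fl 2. Of 11 PRC2 subunits tested, *Ezh1* (0.39) and *Jarid2* (0.30) were called higher and *Eed*, which binds H3K27me3, lower (from 66.7 and 61.7 to 46.2 and 47.8 CPM, log2 difference -0.44, SE 0.09, adjusted p = 0.0075). *Ezh1* lost its call without either library labelled Pcgf1 fl/fl, and *Jarid2* without any 1 of the 4. Of 23 subunits of the BRG1 remodeler tested, only *Dpf1* was called (3 and 8 reads against 31 and 23), and not without the library labelled Pcgf1 fl/fl 2. The other 22 lay between -0.16 and 0.27.

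Most tested monocyte and macrophage genes fell. Of 23 measured, 18 passed the filter, 0 were called higher and 13 lower, and the median was -0.76. *Csf1r*, the receptor for M-CSF, had 114 and 118 CPM in the exon-positive libraries and 52.9 and 49.2 CPM in the exon-negative libraries (log2 difference -1.17, SE 0.08, adjusted p = 3.5e-05). *Ctss*, a lysosomal protease, fell from 55.8 and 50.9 to 10.6 and 14.99 CPM (log2 difference -1.996, SE 0.15, adjusted p = 3.6e-05) and *Ms4a6c* from 53.4 and 54.7 to 11.1 and 14.3 CPM (log2 difference -2.02, SE 0.13, adjusted p = 2.0e-05). The groups did not overlap in any of the 3. *Itgam*, which encodes CD11b, fell from 74.03 and 83.1 to 31.8 and 31.5 CPM (log2 difference -1.28, SE 0.09, adjusted p = 3.5e-05) and *Cd68*, a lysosomal protein, from 37.4 and 38.4 to 13.2 and 15.1 CPM. *Ly6c2*, a monocyte surface antigen, fell from 16.1 and 13.7 to 4.03 and 5.602 CPM. Here too both exon-negative libraries were below both exon-positive ones. Markers of mature macrophages moved with this group. Of 11 measured, 3 passed the filter and all 3 were called lower (*Emr1* not without the library labelled Pcgf1 -/- 2), *C1qa* and *Marco* were at 0 reads in all 4 libraries, and the list summed to 64.6 and 68.4 CPM in the exon-positive libraries and 31.4 and 31.9 CPM in the exon-negative libraries. The part of mature macrophages in the fall was not tested, and *C1qb*, *C1qc* and *Siglec1*, which define them, had at most 3 reads in any library.

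A list of neutrophil and primary granule genes, which also holds genes shared with other phagocytes such as *Cybb*, fell in part. Of 13 tested, 0 were called higher and 6 lower (*Cybb*, given above, among them), with a median of -0.35, or -0.18 without a filter. *Lyz2*, which encodes lysozyme, fell from 92.97 and 77.7 to 37.1 and 39.6 CPM (log2 difference -1.13, SE 0.10, adjusted p = 1.0e-04), *Ms4a3*, a marker of granulocyte and monocyte progenitors, from 31.3 and 24.5 to 9.67 and 11.4 CPM (log2 difference -1.32, SE 0.14, adjusted p = 2.6e-04) and the protease inhibitor gene *Cst7* from 46.4 and 42.5 to 25.8 and 27.5 CPM. *Mpo*, myeloperoxidase, was among the most abundant genes, with 1992 and 1996 CPM in the exon-positive libraries and 1874 and 1906 CPM in the exon-negative libraries, and *Elane*, neutrophil elastase, had 61.3 and 51.1 CPM in the exon-positive libraries and 45.3 and 54.4 CPM in the exon-negative libraries. Neither passed the test (adjusted p = 0.58 and 0.39). *Prtn3* (-0.35) and *Igsf6* (-0.68) were called lower, *Prtn3* not without either library labelled Pcgf1 fl/fl and *Igsf6* not without that labelled Pcgf1 -/- 2. Markers of mature neutrophils were called in neither direction, with *Retnlg* at 0 reads and a sum over 10 markers of 83.2 and 89.8 CPM in the exon-positive libraries and 79.00 and 74.8 CPM in the exon-negative libraries.

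The transcription factors of myeloid cells went in opposite directions, with 5 called higher and 6 lower of 19 tested. Without the library labelled Pcgf1 -/- 2, 2 were called higher, and without any 1 of the others 3, as without the 3' exon. *Irf8*, which directs monocytes and dendritic cells, fell from 545 and 557 to 355 and 338 CPM (log2 difference -0.67, SE 0.07, adjusted p = 2.8e-04), and *Klf4*, a monocyte factor, from 2.43 and 3.71 to 1.04 and 0.757 CPM (log2 difference -1.09, SE 0.22, adjusted p = 0.0069). *Id2* fell from 19.9 and 19.4 to 10.8 and 13.2 CPM. *Gfi1*, a repressor that favours granulocytes, rose from 8.85 and 10.8 to 18.1 and 16.8 CPM (log2 difference 0.77, SE 0.14, adjusted p = 0.0035). *Cebpa*, needed for granulocyte and monocyte progenitors, rose from 152 and 154 to 191 and 198 CPM (log2 difference 0.34, SE 0.07, adjusted p = 0.011), a call that was lost without the library labelled Pcgf1 fl/fl 1 or that labelled Pcgf1 -/- 2. *Sfpi1*, the symbol in the files for *Spi1* (PU.1), was called lower at -0.28 (from 150.04 and 141 to 116 and 124 CPM), but not under median ratio or TMM scaling, nor without any 1 library. Of 11 myeloid cytokine receptors tested, 4 were called lower and 0 higher (2 lower without any 1 library but that labelled Pcgf1 -/- 1, and 1, *Csf1r*, without the 3' exon). Beside *Csf1r*, these were *Il6st*, a subunit shared by IL6 family receptors (-0.54), *Il3ra*, of the IL3 receptor (-0.36), and *Csf2ra*, of the GM-CSF receptor (-0.32), of which *Csf2ra* lost its call without any 1 library and *Il3ra* without any 1 but that labelled Pcgf1 -/- 1.

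Many genes of dendritic cells and most MHC class II genes fell. Of 13 dendritic cell genes tested, 7 were called lower and 0 higher (median -0.63, with -0.38 without the 3' exon and -1.15 with a pseudocount of 0.1). Under TMM or median ratio scaling 1 was called higher, *Itgax*, named after its values were seen. Those called hold genes of plasmacytoid dendritic cells, with *Siglech* falling from 12.2 and 12.8 to 6.21 and 4.92 CPM (log2 difference -1.05, SE 0.15, adjusted p = 0.0012), *Tlr9* from 10.03 and 12.9 to 2.47 and 2.04 CPM, *Tlr7* from 8.63 and 8.72 to 3.51 and 2.35 CPM and *Irf7* from 18.8 and 20.3 to 6.39 and 4.32 CPM. *Bst2*, also an interferon-induced gene, fell from 151 and 131 to 62.8 and 63.97 CPM (log2 difference -1.14, SE 0.09, adjusted p = 4.5e-05). Of 10 MHC class II genes tested, 8 were called lower and 1 higher, with a median of -0.83. *Cd74*, the invariant chain, had 164 and 147 CPM in the exon-positive libraries and 48.7 and 52.3 CPM in the exon-negative libraries (log2 difference -1.602, SE 0.09, adjusted p = 1.0e-05), and *Ciita*, the transactivator of the class, had 8.26 and 12.97 CPM in the exon-positive libraries and 4.95 and 2.95 CPM in the exon-negative libraries (log2 difference -1.23, SE 0.24, adjusted p = 0.0061). Both fell, as did most genes of the class II chains and their chaperones. *H2-Aa* fell from 38.8 and 33.8 to 11.5 and 11.5 CPM, *H2-Eb1* from 37.8 and 36.3 to 10.4 and 15.4 CPM, *H2-DMb2* from 9.95 and 11.7 to 5.24 and 5.602 CPM and *H2-Oa* from 13.4 and 12.5 to 6.96 and 7.27 CPM. *H2-Ab1*, the partner chain of *H2-Aa*, was the gene called higher, at 0.29, not called without any 1 of the 4 libraries, and is named here after its values were seen. Class II genes have similar relatives, among which reads may be split.

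More lymphoid genes fell than rose. Of 33 measured, 22 passed the filter, 2 were called higher and 9 lower, with a median of -0.25. The genes called higher were *Foxo1* and *Rgs1*, named after their values were seen, and without the library labelled Pcgf1 fl/fl 2 or that labelled Pcgf1 -/- 2 the number called higher was 0. The median was -0.15 without the 3' exon and -0.04 without a filter. *Dntt*, the terminal transferase of early lymphoid cells, had 179.8 and 159.98 CPM in the exon-positive libraries and 90.05 and 94.3 CPM in the exon-negative libraries (log2 difference -0.87, SE 0.09, adjusted p = 1.4e-04). *Il7r*, the IL7 receptor, was low, with 47 and 47 reads against 20 and 9, and fell (log2 difference -1.19, SE 0.20, adjusted p = 0.0028), a call that was lost without the 3' exon. *Ly6d*, which marks B-biased progenitors, fell from 37.6 and 35.3 to 14.9 and 14.6 CPM (log2 difference -1.25, SE 0.11, adjusted p = 6.0e-05). All of these were lower in each exon-negative library than in either exon-positive one. *Blnk*, a B cell adaptor, fell from 7.96 and 6.73 to 1.78 and 2.195 CPM and the chemokine receptor gene *Ccr7* from 7.004 and 8.85 to 2.302 and 2.73 CPM. *Ebf1*, the factor that commits cells to the B lineage, had 3 and 5 reads against 8 and 2, and *Rag1*, the recombinase, 3 and 5 against 7 and 2. Both were below the filter, and a difference in them was not detectable at this depth. Markers of mature B cells included 3 genes above the filter, of which *Cd22* and *Cd37* were called lower, both not without the library labelled Pcgf1 fl/fl 2 and *Cd37* also not without that labelled Pcgf1 fl/fl 1, while *Ms4a1* and *Pax5* had at most 4 reads. That list of 9 summed to 146 and 136 CPM in the exon-positive libraries and 104 and 116 CPM in the exon-negative libraries, and its part in the fall was not tested.

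Notch targets and T lineage genes divided, with 3 called higher and 5 lower of 14 tested, and 1 lower without the library labelled Pcgf1 -/- 2 and 2 without the 3' exon. *Gata3*, a T lineage and stem cell factor, rose from 2.95 and 3.23 to 9.95 and 8.02 CPM (log2 difference 1.28, SE 0.16, adjusted p = 6.1e-04), *Notch3* from 1.92 and 2.402 to 5.81 and 6.13 CPM and *Nrarp*, a Notch target that dampens the pathway, from 4.72 and 5.28 to 10.53 and 11.8 CPM (log2 difference 1.02, SE 0.15, adjusted p = 0.0011). *Cd7*, a surface protein of early lymphoid cells, fell from 17.03 and 15.1 to 5.24 and 4.32 CPM (log2 difference -1.57, SE 0.15, adjusted p = 1.2e-04). *Notch1* fell from 192 and 251 to 166 and 141 CPM (log2 difference -0.52, SE 0.13, adjusted p = 0.019), and lost its call without either library labelled Pcgf1 -/-. *Thy1* (-0.83) and *Zap70* (-0.94) were called lower, but not without the library labelled Pcgf1 -/- 2. Markers of mature T and NK cells moved with the lower genes. *Lck* (-0.59) and *Nkg7* (-1.35), the 2 markers above the filter, were both called lower, *Lck* not without the library labelled Pcgf1 -/- 2, and the 11 measured summed to 53.7 and 47.01 CPM in the exon-positive libraries and 22.3 and 24.3 CPM in the exon-negative libraries. The other 9 had at most 8 reads in any library, with *Cd3e*, *Cd3g*, *Cd3d* and *Cd8a* at no more than 3 and *Ncr1* and *Gzma* at 0 in all 4. Their part in the lower lymphoid genes was not tested.

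**Figure D4:**
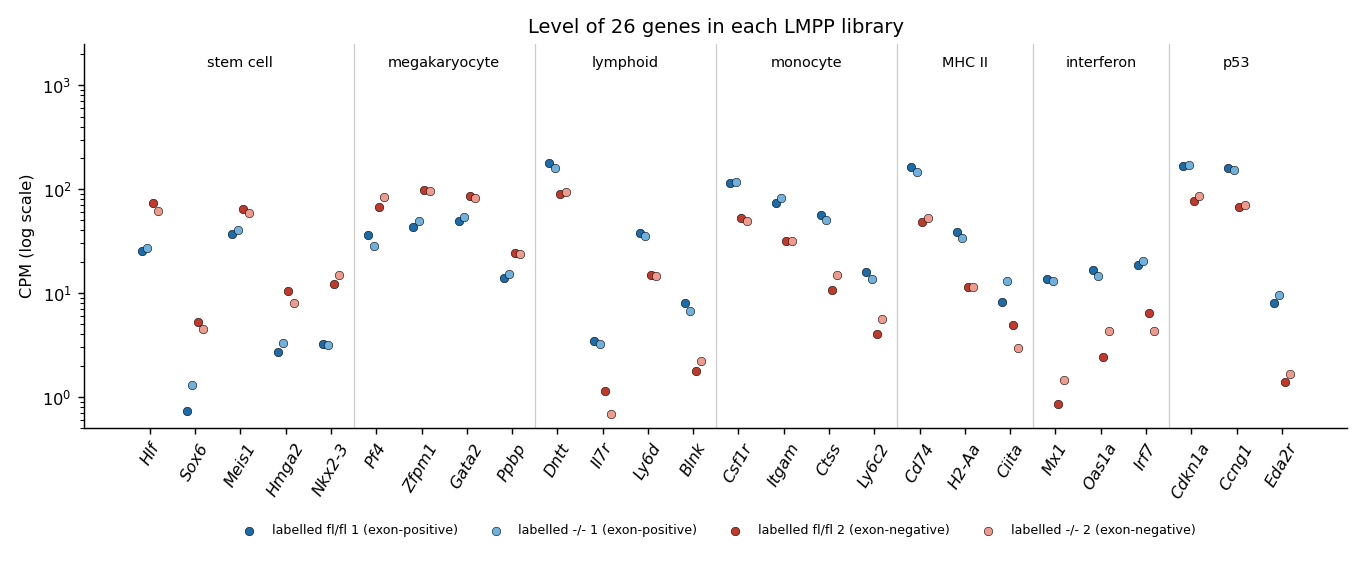
CPM on a log axis (y) of 26 genes (x) in the 4 LMPP libraries, 1 point for each library, blue for exon-positive and red for exon-negative, arranged by program. The stem cell and megakaryocyte genes shown have both red points above both blue ones. The lymphoid, monocyte, MHC class II, interferon and p53 genes shown have them below. All 26 were picked from genes called in that direction. Other members of the programs were not called or went the other way, such as *Ly6a*, *Egr1*, *H2-Ab1*, *Foxo1*, *Rgs1* and *Perp*.

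Genes that interferons induce fell broadly. Of 40 measured, 36 passed the filter, 26 were called lower and 0 higher, and the median was -0.76. Of the 36, 6 reached 1 CPM in an exon-positive library only. The 34 with a mean of at least 1 CPM over all 4 libraries held all 26 calls. That mean is raised by the group in which a gene is high, so it does not set such genes aside. Without the 3' exon, 16 of 32 tested were called lower. *Mx1*, an antiviral GTPase, had 13.8 and 13.1 CPM in the exon-positive libraries and 0.863 and 1.44 CPM in the exon-negative libraries (log2 difference -2.76, SE 0.18, adjusted p = 2.2e-05). *Oas1a* and *Oasl2*, of the oligoadenylate synthetase family, fell from 16.5 and 14.6 to 2.42 and 4.32 CPM and from 12.9 and 11.1 to 2.47 and 2.195 CPM. *Oas2* had 63 and 112 reads against 3 and 14 and *Ifi44* 62 and 94 reads against 8 and 1. *Mx2* had 68 and 80 reads against 7 and 9. Interferon genes of the GBP, OAS and Mx families have close relatives, and reads may be split among them. The antigen-processing genes of the list, *Tap1*, *Psmb8* and *Psmb9*, which were named after their values were seen, had differences of 0.21, -0.0054 and -0.0048 and were not called.

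Inflammasome and Toll-like receptor genes, sensors of microbial products, were called lower in 9 and higher in 0 of 19 tested (median -0.58). Of the 19, 3 reached 1 CPM in an exon-positive library only, and so passed the filter through that group. *Nlrp3* fell from 6.64 and 7.69 to 2.01 and 1.59 CPM (log2 difference -1.54, SE 0.17, adjusted p = 2.9e-04), *Nlrc4* from 5.53 and 4.39 to 1.15 and 0.908 CPM (log2 difference -1.55, SE 0.19, adjusted p = 4.7e-04), and *Tlr9* and *Tlr7* as given above. *Nlrp1a* (-0.82) and *Nlrp1b* (-0.96), which are close paralogs, lost their calls without the library labelled Pcgf1 -/- 2.

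Most tested targets of p53 fell. Of 22 tested, 18 were called lower and 0 higher, with a median of -0.79. The number called lower was 12 without the 3' exon and 15 without either 1 of the libraries labelled Pcgf1 -/-. The medians of the 4 pairings of 1 exon-negative with 1 exon-positive library ran from -0.779 to -0.713. *Cdkn1a*, which encodes the cell cycle inhibitor p21, had 168 and 171 CPM in the exon-positive libraries and 77.3 and 86.4 CPM in the exon-negative libraries (log2 difference -1.04, SE 0.08, adjusted p = 4.8e-05). *Ccng1* fell from 161 and 154 to 67.8 and 70.4 CPM (log2 difference -1.18, SE 0.08, adjusted p = 2.6e-05), *Zmat3* from 52.5 and 60.3 to 20.4 and 19.5 CPM (log2 difference -1.45, SE 0.10, adjusted p = 3.5e-05) and *Phlda3*, an inhibitor of AKT, from 39.4 and 39.7 to 14.6 and 14.1 CPM (log2 difference -1.402, SE 0.10, adjusted p = 3.5e-05). In all of these the exon-negative libraries were below the exon-positive ones without overlap. *Eda2r*, a death receptor, fell from 7.96 and 9.54 to 1.38 and 1.67 CPM and *Plk2* from 9.95 and 9.06 to 1.496 and 2.498 CPM. *Trp53inp1* fell from 91.9 and 102 to 46.03 and 45.9 CPM, a call that was lost without the 3' exon. *Perp*, *Sesn1*, *Sesn2* and *Plk3* were the 4 not called and are named after their values were seen, with differences of 0.55, -0.07, -0.16 and -0.17, and *Perp* was called higher without the library labelled Pcgf1 fl/fl 1 and under TMM or median ratio scaling.

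The cell cycle inhibitors did not move together. *Cdkn1b*, which encodes p27, rose from 39.4 and 38.5 to 72.2 and 65.7 CPM (log2 difference 0.81, SE 0.09, adjusted p = 3.0e-04) while *Cdkn1a* fell. *Cdkn1c*, p57, rose from 0.958 and 0.824 to 2.65 and 2.35 CPM, a call that was lost without the library labelled Pcgf1 fl/fl 2. *Cdkn2a*, a classical Polycomb target, had 0 reads in both exon-positive libraries and 1 and 2 reads in the exon-negative ones, too few for a comparison. *Rb1* had 45.5 and 44.8 CPM in the exon-positive libraries and 46.6 and 40.3 CPM in the exon-negative libraries and did not pass the test (adjusted p = 0.75). Of 47 genes of DNA replication and mitosis tested, 2 were called lower and 0 higher, with a median of -0.09 and 27.7% of differences above 0, beside 47.0% over all genes. They were *Rrm2*, a ribonucleotide reductase subunit, from 151 and 147 to 118 and 116 CPM, and *Ccne2*, cyclin E2, from 24.2 and 18.1 to 14.2 and 12.3 CPM, and each lost its call without the library labelled Pcgf1 fl/fl 1 or that labelled Pcgf1 -/- 2, where *Gins1* was called lower and, in the latter, *Mki67* higher. Of 18 genes of cholesterol synthesis tested, *Lss* was called higher (0.38), but not without the library labelled Pcgf1 -/- 1 or Pcgf1 fl/fl 2.

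**Figure D5:**
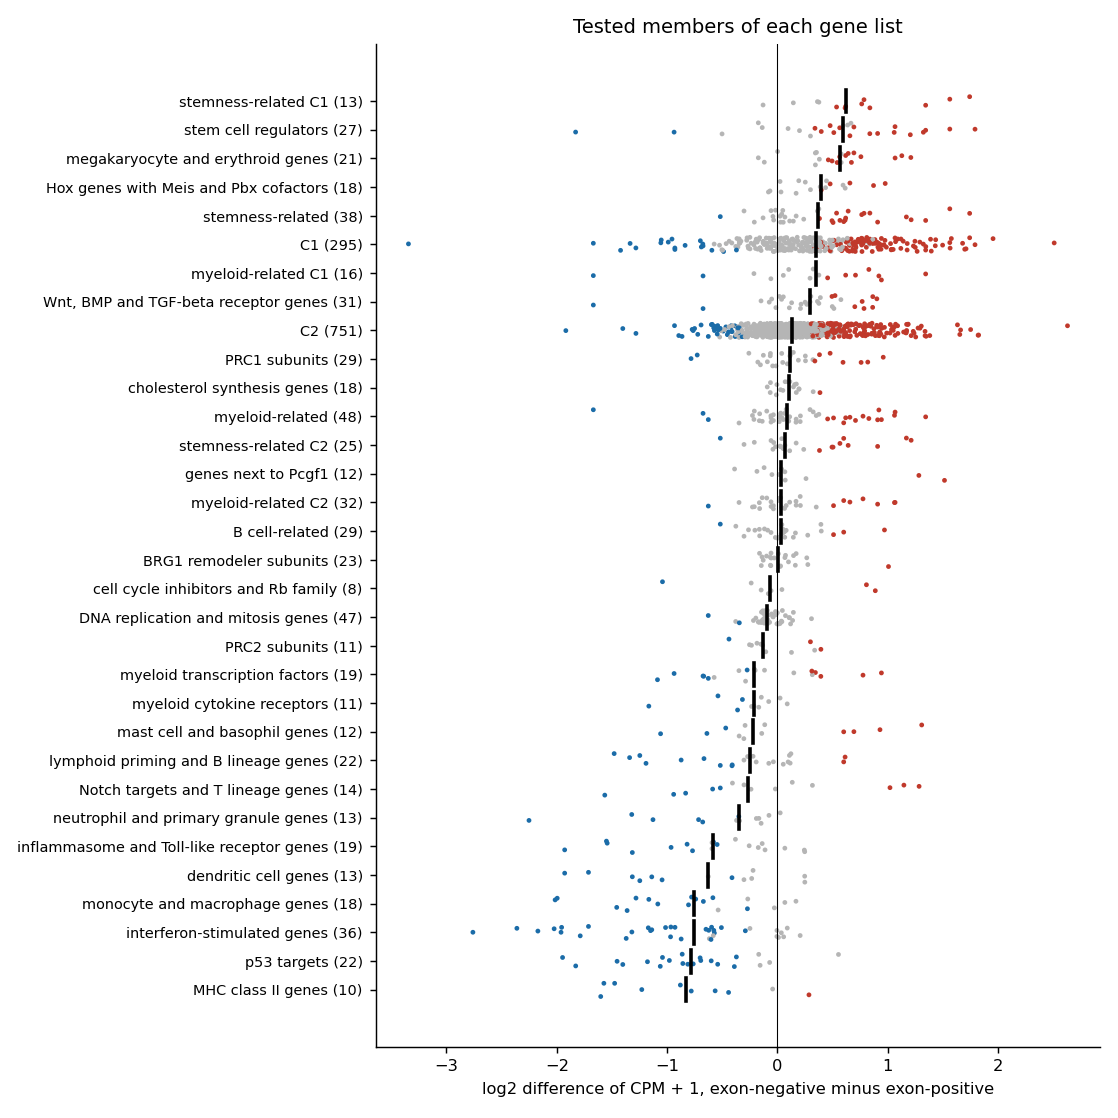
Log2 difference, exon-negative minus exon-positive (x axis), of every tested member of each gene list (y axis, number tested in parentheses), with members called higher in red, lower in blue and not called in grey, and the list's median as a black bar. Medians run from -0.83 for MHC class II genes to 0.62 for the stemness-related C1 genes.

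Around *Pcgf1* itself, 13 genes on the same stretch of chromosome 6 were measured, 12 passed the filter, and 2 were called, both higher. Of those with a mean of at least 1 CPM over all 4 libraries, 1 was called, *Rtkn*. *Lbx2*, a homeobox gene on the same strand that starts 5518 bases past the end of *Pcgf1* (mm9 chr6:83036359-83038237), had 0 and 1 reads against 30 and 29, and so passed the filter only through the exon-negative libraries. *Rtkn*, 54616 bases past it (chr6:83085457-83102573), had 13 and 16 reads against 62 and 57 (log2 difference 1.28, SE 0.19, adjusted p = 0.0012). The 5 tested genes that lie between them (*Ccdc142*, *Mrpl53*, *Mogs*, *Wbp1* and *Ino80b*) had differences from -0.05 to 0.07 and none was called. *Esr1*, the mouse gene related to the human hormone-binding part of ERT2-Cre, had 11.1 and 11.9 CPM in the exon-positive libraries and 12.3 and 9.24 CPM in the exon-negative libraries (adjusted p = 0.72).

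Stromal feeder cells share the dishes of these cultures. Of 20 feeder markers, 5 passed the filter and 1, *Vim*, was called lower, while *Col3a1*, *Col6a1*, *Dcn*, *Lum* and *Postn* were at 0 reads in all 4 libraries. Their sum, mostly *Vim*, which progenitors also express, was 577 and 559 CPM in the exon-positive libraries and 384 and 432 CPM in the exon-negative libraries, and the part of feeder cells in the falls above was not tested. Of 14 markers of LMPPs, all passed the filter, 1 (*Kit*) was called higher and 7 lower, and the list summed to 3128 and 3258 CPM in the exon-positive libraries and 3125 and 3002 CPM in the exon-negative libraries. Those called lower included *Ly6a*, *Cd48*, *Dntt*, *Notch1*, *Il7r* and *Sfpi1*.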

How the data were processed

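Poly(A) RNA of LMPP libraries was sequenced on an Illumina HiSeq. The authors' methods name HISAT2 against mm9, Rsubread and edgeR, whereas the submitters' processing notes name TopHat2 2.0.13 and edgeR. The deposited values are CPM, that is counts that the authors scaled to a common library total. The table lists 284716 exons for 23284 symbols rather than the genes that the planned analysis had assumed, and the filter on CPM named in the methods is not applied in it. An exon shared by transcripts is listed repeatedly (26.8% of exons with reads), so an exon with the same values as the exon before it under the same symbol was counted once and the rest were summed by symbol. A read spanning exons may count on each of them. All values (100%) were whole multiples of 1 read within 0.01 of a read, which gave reads for count tests. The IdHPC table was normalized separately and was used for *Pcgf1* exons only. No column of values was left without a sample.

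Genes with at least 1 CPM in any library were tested with limma (R 4.3.3, limma 3.58.1) after a log2(CPM + 1) transformation, allowing the prior variance to follow the mean. Adjustment ran over 12136 genes, *Pcgf1* included. The study calls its replicates biologically independent, but the labels do not tie libraries to mice, so p-values measure the spread between these libraries, which may be partly technical, and a permutation test of 2 libraries against 2 cannot go below a two-sided p of 0.333. Alternatives were edgeR 4.0.16 (quasi-likelihood test, exactTest) and DESeq2 1.42.0 on the recovered reads, other scalings, filters and pseudocounts, each library left out (the lone library of a group then taken to vary like the other group), and, chosen after seeing the data, repeated exons merged also across symbols (805 more). The main limma fit, edgeR's 2 tests and DESeq2 were run on 1 set of simulated counts. There, 200 genes, none from the lowest ones, changed by 2 on the log2 scale at a dispersion of 0.02. Each tool recovered all 200, with 3 to 8 false calls. Smaller changes, and the fits with the label as a term, a replicate block or 1 library left out, were not simulated. Floors cover counting error only, as PCR copies could not be told from separate molecules.

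The grouping, gene lists and marker lists were chosen with earlier results of these data known, so that no list is independent support for its direction. Named genes were the 12 strongest called rises and the 12 strongest called falls, up to 6 called members of each list by size of change, and a set of progenitor regulators whether called or not. Most genes outside this rule are marked in the text or belong to the marker lists. The exceptions are *Gins1*, *Mki67*, *Gm6548* and *2410018M08Rik*, named after their values were seen, and the listed genes between *Lbx2* and *Rtkn*. A few genes that the rule names are not reported here. Exon coordinates and sequences are those of the mm9 reference annotation.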

Additional observations from a re-analysis of the deposited data

How the results depend on the processing

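The number of genes called between the exon groups (2090) stayed between 1482 and 2579 under a pseudocount of 0.1, the stricter filter or none, both other scalings, no mean-variance trend, sums over all listed exons or without repeats across symbols, edgeR's 2 tests, DESeq2 and the label as a term. It was 1163 without the 3' exon of each gene, and 1329 to 1974 with 1 library left out, the lowest without the library labelled Pcgf1 fl/fl 2, where a lone library is assumed to vary like the other group. Of 150 named called genes, 112 kept their call in every setting that tested them (7 of the 150 were not tested in at least 1), 38 lost it in at least 1, and 0 reversed. Higher genes made up 58.9% of calls, 62.1% after median ratio scaling and 64.2% without the 3' exon. The replicate number cannot be a block for the exon groups, since it is the same split, and with libraries paired by label instead (the label as a term) 1896 genes were called. For the comparison by labels, which gave 0 calls in every other fit, a replicate block gave 3 (*Tuba1a*, *Gm6548* and *2410018M08Rik*). Same-numbered libraries, which are also the exon groups, had deviations from the label means that correlated at 0.71 across genes. This is the value given above for the exon differences, so number and exon group cannot be told apart by it.

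List medians were compared with the SD of the 4 medians between single libraries, a spread defined after the data were seen. Beyond it, with at least 1 CPM in at least 2 libraries, the median was 0.34 for Hox and -0.90 for interferon genes. Without a filter it was 0.15 for C1, 0.18 for Hox, -0.64 for interferon, -0.0372 for lymphoid, 0.48 for megakaryocyte, -0.63 for monocyte, -0.18 for neutrophil and 0.51 for stem cell genes. With a pseudocount of 0.1 it was 0.44 for Hox, -0.92 for MHC class II, -1.15 for dendritic, -1.01 for interferon, 0.65 for megakaryocyte, -0.87 for monocyte, -0.82 for p53 and 0.70 for stem cell genes. Over all listed exons it was -1.05 for dendritic, -0.86 for interferon and 0.63 for stem cell genes. Without the 3' exon it was 0.33 for Hox, -0.0148 for Notch, 0.43 for Wnt, -0.15 for lymphoid, 0.53 for megakaryocyte, 0.16 for myeloid-related and 0.47 for their C1 part, -0.70 for p53 and 0.74 for the stemness-related C1 genes. With 1 library left out, medians ran from -0.023 to 0.0535 for BRG1, 0.29 to 0.39 for Hox, 0.0483 to 0.119 for cholesterol, -0.93 to -0.62 for dendritic, 0.011 to 0.0706 for neighbouring, -0.74 to -0.42 for inflammasome, -0.93 to -0.70 for interferon, 0.51 to 0.59 for megakaryocyte, -0.78 to -0.72 for monocyte, -0.33 to -0.0939 for cytokine receptor, 0.0522 to 0.148 for myeloid-related and 0.00618 to 0.112 for their C2 part, -0.79 to -0.75 for p53, 0.53 to 0.62 for stem cell and 0.60 to 0.71 for stemness-related C1 genes. The medians of BRG1 and B cell-related genes, both near 0, changed sign under some alternatives. Without a mean-variance trend, 3 myeloid transcription factors were called higher, 2 myeloid cytokine receptors lower and 0 replication genes lower. The cause of these shifts was not tested.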
